A study of Saccharomyces cerevisiae with 8 samples.

Results

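The interaction of cycloheximide with UPF1 genotype was read from all 8 libraries of the series, in 4 groups of 2. It asks whether budding yeast without UPF1 responds to cycloheximide (CHX), a drug that blocks translation elongation, as wild-type yeast does. The cells were BY4741, a MATa laboratory strain, and every group carried his3Δ1, leu2Δ0, met15Δ0 and ura3Δ0. Wild-type cells (WT) and cells that also carried upf1*::kanMX4 (upf1) grew in YPD at 30 °C and received 100 µg/ml CHX or its solvent DMSO for 15 min, which gave WT DMSO and WT CHX as well as upf1 DMSO and upf1 CHX. The labels call the 2 libraries of a group biological replicates and do not say whether the upf1 strain is 1 clone. Total RNA of all 8 samples was digested before sequencing with Terminator, an exonuclease that removes RNA with a 5′ monophosphate and spares RNA with a cap. Undigested libraries were not analysed here, so a higher amount of an RNA and a larger capped share of it cannot be told apart, and neither can more cells with an RNA and more RNA per cell.

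Upf1 is a helicase at the centre of nonsense-mediated decay (NMD), which removes RNAs whose translation ends too early, and NMD depends on translating ribosomes. CHX stops those ribosomes, so both the drug and the loss of UPF1 keep NMD from acting, and a response to CHX that is smaller without UPF1 can be asked of each RNA. Besides mRNAs the table lists non-coding transcripts in catalogues named after their decay. XUTs accumulate without the cytoplasmic 5′ exonuclease Xrn1, CUTs without the nuclear exosome and NUTs without the early termination factor Nrd1, while SUTs are stable unannotated transcripts.

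The response was the log2 level with CHX minus that with DMSO, and the interaction was the response in upf1 minus the response in WT. Below 0 the response was smaller without UPF1 and above 0 it was larger. Levels are scaled reads per kb (1000 times the density as deposited), and 2 scaled reads per kb were added before taking log2, which understates changes of weakly read genes. The libraries held 1310994 to 5689067 reads on the listed features. Where 4 pairs of values follow a name, they are WT with DMSO, then WT with CHX, then upf1 with DMSO and last upf1 with CHX. UPF1, listed as NAM7 (YMR080C, chromosome XIII, 426712 to 429627 in R64), stood at 14.8 and 15.2 in WT on DMSO, 83.5 and 44.8 in WT on CHX, 5.94 and 2.80 in upf1 cells on DMSO, and 13.5 and 10.1 in upf1 cells on CHX. Every upf1 library lay below every WT library, while 10 to 66 reads of the gene remained in each upf1 library. The mating type markers went with the label: 6 MATa markers summed to 6008 to 29145 scaled reads per kb in a library and 4 MATalpha markers to 10.1 to 108, with MF(ALPHA)1 at 0 in both WT DMSO libraries. The MATalpha sum was itself highest in upf1 CHX, at 71.2 and 108, and its part in any result was not tested.

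No single feature passed the test of the interaction after adjustment. Of 10392 features tested, limma called 0 in either direction (0.0%), and the smallest adjusted p was 0.134. Without adjustment, 805 features (7.75%) had a smaller response in upf1 and 139 (1.34%) a larger one at p under 0.05. Voom on the recovered reads called 1 feature, CCW22, and an added 0.5 scaled reads per kb in place of 2 gave 11 smaller and 2 larger calls. The design holds 4 residual degrees of freedom, and the median standard error of an interaction was 0.52. The split of 805 against 139 became 1228 against 144 with libraries scaled to equal medians of protein-coding genes and 862 against 172 by voom. With quantile normalization it was 535 against 488, and the median of protein-coding genes was 0.20 in place of -0.01. Classes and lists are therefore read relative to protein-coding genes.

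Non-coding classes had lower interactions than protein-coding genes. The median interaction was -0.57 over 1373 XUTs, -0.61 over 705 SUTs, -0.54 over 756 CUTs and -0.42 over 1243 NUTs, against -0.01 over 5519 protein-coding genes. The share below 0 was 77.3% for XUTs, 80.9% for SUTs, 76.7% for CUTs and 79.0% for NUTs, against 50.8% for protein-coding genes. At an unadjusted p under 0.05, a smaller response was seen in 16.0% (XUTs), 17.0% (SUTs), 9.92% (CUTs) and 9.90% (NUTs), against the 7.75% of all features and 3.53% of protein-coding genes. A larger response by the same measure held for 1.53% (XUTs), 0.57% (SUTs), 1.06% (CUTs) and 0.24% (NUTs). Relative to protein-coding genes the medians of these classes stayed below 0 in all 18 fits run, quantile normalization included. The 235 tRNAs, whose copies share reads, had a median of -0.35 but spread from -1.67 to 0.52 between their quartiles. That median was 0.12 by voom and 0.02 without WT DMSO replicate 2, and 26.4% of the tRNAs had no read in either WT DMSO library. The 76 snoRNAs and the 6 snRNAs had medians of -0.01 and -0.08.

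**Figure D1:**
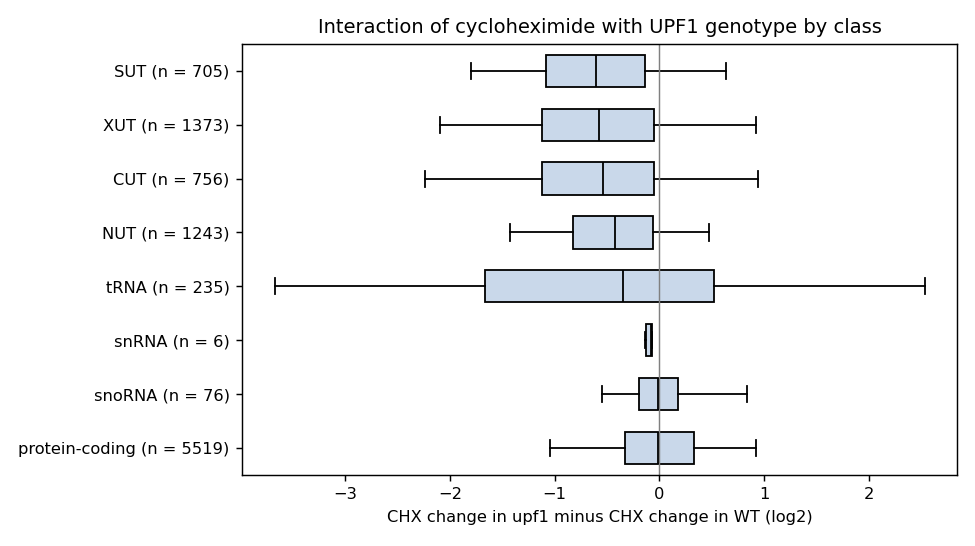
Interaction of CHX with genotype (log2, horizontal axis) for the features tested in each class. Lines in the boxes are medians, boxes span the quartiles and whiskers the 5th to 95th percentile, and the boxes of XUTs, SUTs, CUTs and NUTs lie below 0 while that of protein-coding genes is centred on -0.01.

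Summed over the class, XUTs had a lower fold on CHX in upf1, while the added amounts differed by less than their error. In units of 1000 scaled reads their sum was 4.08 and 3.61 in WT on DMSO, 21.4 and 18.6 in WT on CHX, 13.97 and 11.2 in upf1 cells on DMSO, and 29.6 and 28.3 in upf1 cells on CHX. The groups did not overlap, and upf1 CHX was the highest. CHX thus went with a 5.196-fold sum in WT and a 2.29-fold sum in upf1, a log2 interaction of -1.17 ± 0.21 (SE, n = 2 libraries a group). The amount added on CHX was 16.1 units in WT and 16.3 in upf1, a difference of 0.16 ± 2.09. Had the folds of CHX and of the missing UPF1 multiplied, the sum in upf1 CHX would have been 65.5, and had their added amounts been summed it would have been 28.7. The observed mean was 28.9. The additive difference depends on the scaling. When libraries were scaled to equal medians of protein-coding genes, the difference was -9.77 units, while the log2 interaction of the sum was -1.16.

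The SUT sum behaved likewise. It was 2.68 and 2.25 in WT on DMSO, 14.3 and 11.9 in WT on CHX, 8.90 and 6.82 in upf1 cells on DMSO, and 20.03 and 18.8 in upf1 cells on CHX. Again the groups were separate and upf1 CHX the highest. The sum was 5.32-fold higher with CHX in WT and 2.47-fold in upf1, an interaction of -1.10 ± 0.27. CHX added 10.6 units in WT and 11.5 in upf1, a difference of 0.88 ± 1.71, which became -5.75 with the protein-coding median scaling. For both classes the exact two-sided permutation of genotype labels within each treatment, with 36 arrangements, gave p = 0.333. The smallest p that these arrangements can give is 0.0556, and moving labels also mixes in the difference between genotypes, so the test could not pass 0.05.

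For CUTs the sum with CHX was lower without UPF1. It was 2.82 and 2.32 in WT on DMSO, 8.59 and 7.48 in WT on CHX, 3.10 and 2.83 in upf1 cells on DMSO, and 6.81 and 6.66 in upf1 cells on CHX. Both upf1 CHX libraries lay below both WT CHX libraries, whereas the DMSO groups lay next to each other. The folds on CHX were 3.13 in WT and 2.27 in upf1, an interaction of -0.46 ± 0.18 (exact permutation p = 0.0556, the smallest possible). The snRNA sum, at -0.25 ± 0.11, reached the same p by that exact test. CHX added 5.46 units in WT and 3.77 in upf1, a difference of -1.69 ± 0.63, and -1.24 with the protein-coding median scaling. The NUT sum hardly differed, with an interaction of -0.04 ± 0.04, but 5 NUTs hold 54.2% of that sum, so it does not describe the class. Protein-coding genes gave sums of 1188 and 1166, 2300.3 and 2076.5, 1402 and 1168, and 2374 and 2105, an interaction of -0.09 ± 0.17.

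**Figure D2:**
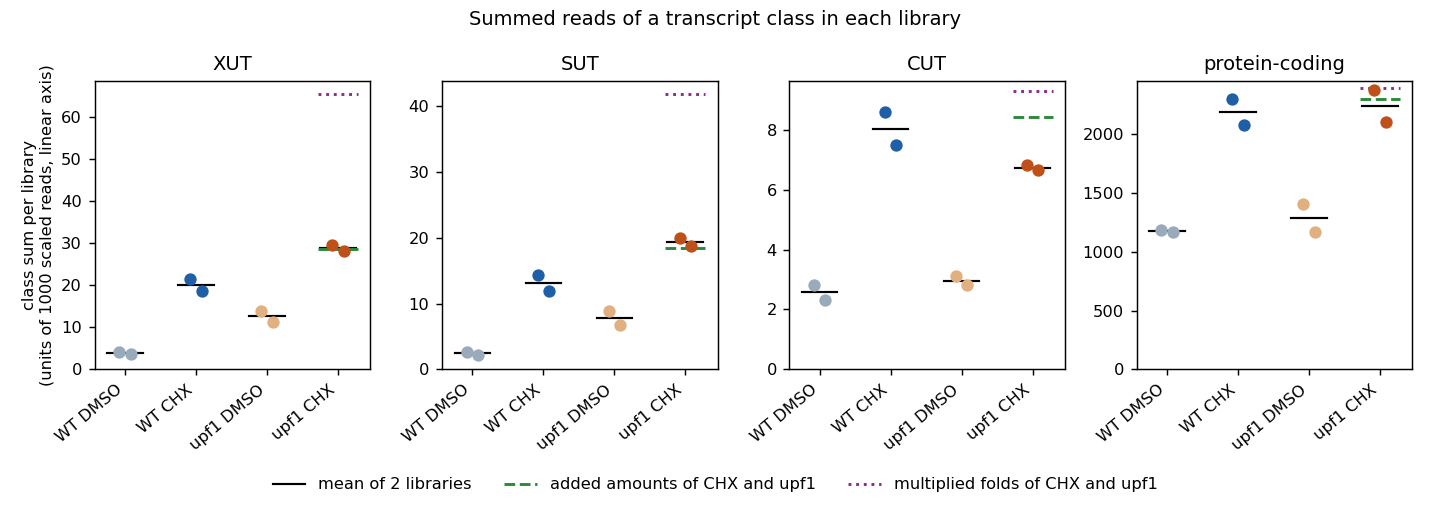
Summed reads of XUTs, SUTs, CUTs and protein-coding genes in each of the 8 libraries (points, linear axes from 0, units of 1000 scaled reads) with group means as black lines. At upf1 CHX the dashed line adds the amounts of CHX and of upf1 to WT DMSO and the dotted line multiplies their folds: XUTs lie at the dashed line (28.7) and far below the dotted one (65.5), CUTs below both.

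The order of the 4 group means also varied by class. upf1 CHX was the highest group in 87.6% of protein-coding genes, 77.6% of SUTs, 70.1% of XUTs, 55.9% of NUTs and 39.0% of CUTs. WT CHX was the highest in 58.5% of CUTs, 41.8% of NUTs and 28.2% of XUTs, against 11.1% of protein-coding genes. Both upf1 CHX libraries lay below both WT CHX libraries in 29.2% of CUTs, 19.4% of NUTs and 9.83% of XUTs, and above them in 15.2%, 33.1% and 45.3%. WT DMSO was the lowest group in 88.2% of XUTs, 90.4% of SUTs and 68.9% of CUTs. A start from few reads goes with this: 27.8% of the XUTs tested, 19.0% of SUTs, 26.3% of CUTs and 10.9% of NUTs had no read in either WT DMSO library, against 3.42% of protein-coding genes.

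The class difference was seen within bins of the mean over the 8 libraries, below 50 scaled reads per kb. These bins include the CHX and upf1 values and do not match the level in WT DMSO. Over the features tested, the median WT DMSO level was 1.46 for XUTs and 8.35 for protein-coding genes. The part of this starting level in the class difference was not tested. Among features with a mean of 10 to 20 scaled reads per kb over the 8 libraries the median interaction was -0.81 for 385 XUTs, -0.75 for 180 SUTs, -0.66 for 189 CUTs and -0.61 for 233 NUTs, against 0.12 for 1025 protein-coding genes. At 2 to 5 it was -0.22 for XUTs and 0.16 for protein-coding genes, and at 20 to 50 it was -1.02 and 0.02. At 50 and above it was -0.78 for 21 XUTs, -0.91 for 40 SUTs, -0.24 for 28 CUTs and -0.10 for 59 NUTs, against -0.12 for protein-coding genes, so that NUTs did not lie lower there. Length moved with the interaction among protein-coding genes. Their median was -0.22 for the 226 genes with a span under 300 bases, -0.17 from 300 to 600, -0.11 from 600 to 1200, 0.03 from 1200 to 2400 and 0.25 for the 814 longer ones. XUTs showed no such course, with medians of -0.58, -0.56, -0.59, -0.59 and -0.44 over the same lengths, and SUTs lay between -0.66 and -0.59 in every length bin. The part of gene length in results on single mRNAs was not tested.

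**Figure D3:**
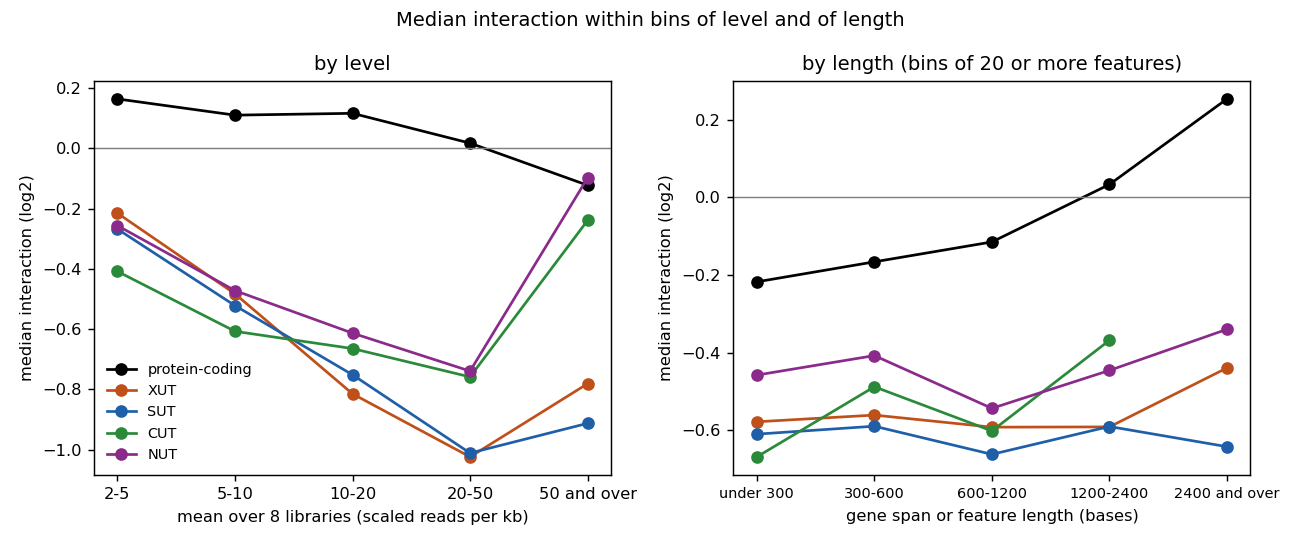
Median interaction (log2, vertical axes) of 5 classes by mean level over the 8 libraries (left) and by gene span or recovered feature length (right, bins of at least 20 features). At every level up to 50 scaled reads per kb the non-coding classes lie below protein-coding genes, and the line of protein-coding genes climbs with length from -0.22 to 0.25 while that of XUTs runs between -0.59 and -0.44.

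Of the XUTs named by their p, XUT1813 had the most reads. It stood at 281 and 253 in WT on DMSO, 1198 and 1182 in WT on CHX, 1582 and 1355 in upf1 cells on DMSO, and 2086 and 2348 in upf1 cells on CHX. The groups were separate, and upf1 cells in DMSO lay above WT cells in CHX. Its interaction was -1.56 ± 0.22 (limma adjusted p = 0.134), from 664 reads in WT DMSO to 8311 in upf1 CHX. XUT0895 and XUT1728 had no read in WT DMSO against 7 and 11 with CHX, which makes them at least 1.66-fold and 2.61-fold higher on CHX in WT against a floor of 3 reads over the group. SUT768 stood at 8.54 and 6.33, 71.8 and 77.9, 54.8 and 47.2, and 94.8 and 102 in the order of the groups above, an interaction of -2.11 ± 0.33 (adjusted p = 0.143). SUT560 followed at -1.62 ± 0.31 (adjusted p = 0.21). In these SUTs CHX and the missing UPF1 each went with a level several times that of WT DMSO, and both together with less than the product.

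CUT154 stood at 0 and 0 in WT on DMSO, 32.9 and 35.9 in WT on CHX, 9.43 and 7.42 in upf1 cells on DMSO, and 28.5 and 28.3 in upf1 cells on CHX, so that with CHX both upf1 libraries were lower. It was at least 4.99-fold higher on CHX in WT. CUT530 and CUT361, with 0 reads in WT DMSO as well, were at least 1.43-fold and 3.33-fold higher. NUT0649 stood at 7.85 and 9.78, 113 and 92.5, 27.8 and 23.2, and 92.2 and 95.03, an interaction of -1.47 ± 0.34 (adjusted p = 0.253). In NUT0649 and in CUT154 the level with CHX was about the same or lower without UPF1 while the level with DMSO was higher. Several larger responses among the non-coding transcripts named rested on few reads, as did several of the smaller ones. XUT1358 had 2 reads with DMSO and 19 with CHX in WT, and 0 and 17 in upf1, a ratio on CHX of 6.77 (95% counting interval 1.63 to 59.96) in WT and of at least 5.24 in upf1. CUT152 stood at 17.9 and 15.9, 23.1 and 34.7, 7.73 and 9.12, and 43.8 and 44.7, with an interaction of 1.47 ± 0.39 (adjusted p = 0.316). Among the smaller responses, NUT0547 stood at 2.25 and 4.01, 32.1 and 28.1, 28.6 and 26.8, and 44.1 and 53.0, with an interaction of -1.90 ± 0.39 (adjusted p = 0.222). SUT790 and NUT0700, also with smaller responses and without a read in WT DMSO, were at least 2.38-fold and 9.51-fold higher on CHX in WT. On the larger side, NUT0757, NUT1140 and NUT1507 lay at 0.89, 1.00 and 0.72 with unadjusted limma p of 0.0482, 0.0501 and 0.098. SUT565 lay at 1.31 ± 0.51. XUT1264, at 1.29 ± 0.51, had 40 recovered reads to the 80 of SUT565 in the same proportions over all 8 libraries, so they are not independent. NUT0547 likewise has the same 328 reads as SUT281. Intervals and floors cover counting error only.

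Among protein-coding genes the smallest p belonged to NIT1 (YIL164C, chromosome IX, 34087 to 34686), which codes for the first part of a nitrilase. Its values were 3.12 and 2.77 in WT on DMSO, 66.5 and 59.4 in WT on CHX, 72.7 and 66.7 in upf1 cells on DMSO, and 134 and 164 in upf1 cells on CHX. Either CHX or the loss of UPF1 went with a level far above WT DMSO, and the groups did not overlap. The interaction was -2.64 ± 0.32 (limma adjusted p = 0.134, and between -3.11 and -2.05 over the alternatives). It starts from 3 reads in WT DMSO against 87 in WT CHX, a ratio of 20.7 (95% counting interval 6.84 to 102), while the fitted ratio in upf1, with the added 2 scaled reads per kb, was 2.10. YIL165C, the open reading frame that continues the nitrilase on the same strand, was listed at 0 and 0 in WT on DMSO, 40.3 and 36.6 in WT on CHX, 65.1 and 21.2 in upf1 cells on DMSO, and 81.3 and 89.4 in upf1 cells on CHX. With 32 reads against 0 it was at least 7.60-fold higher on CHX in WT, against a fitted ratio of 2.21 in upf1. In the reference genome the frame of NIT1 ends at a stop codon and runs on after 9 bases into YIL165C without another stop. The junction is shown for the place of this stop, and its part in the values was not tested. The sequence is from R64, chrIX:34057-34107, minus strand, with the stop of NIT1 and the first ATG of YIL165C in capitals.
NIT1 into YIL165C: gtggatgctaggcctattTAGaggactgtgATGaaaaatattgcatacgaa

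A search of all annotated genes found 16 neighbouring pairs of this kind, in which the upstream frame leads into the downstream gene past its stop with no further stop between. They were picked for their sequence after the values of NIT1 had been seen, so their counts are a description. The counts include NIT1 and YIL165C, which prompted the search. Of the upstream members, 15 could be tested and 11 lay below 0, with a median of -0.34. Of the downstream members 11 of 14 did, with a median of -0.33, against 50.8% and -0.01 for protein-coding genes. After NIT1 the most negative pair was YER039C-A and HVG1 (chromosome V, 228456 to 229481), HVG1 being a copy of the GDP-mannose transporter gene VRG4. The reads of HVG1 are therefore uncertain. YER039C-A stood at 34.2 and 45.6, 177 and 130, 114 and 104, and 134 and 140, an interaction of -1.57 ± 0.34 (adjusted p = 0.24). HVG1 stood at 18.7 and 13.3, 61.2 and 75.6, 45.2 and 38.1, and 87.9 and 97.6, an interaction of -0.86 ± 0.36 (adjusted p = 0.539). Not every pair did so: PSP1 and SPG3 lay at 0.62 and 0.92, and YKR104W, which follows NFT1, at 1.31. The junction of the second pair, chrV:229185-229283 on the minus strand of R64, is printed with the same marks in capitals.
YER039C-A into HVG1: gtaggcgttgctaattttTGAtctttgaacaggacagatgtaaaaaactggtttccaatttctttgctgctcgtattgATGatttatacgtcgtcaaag

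CCW22 (YDR134C, chromosome IV, 721071 to 721481), annotated as a pseudogene, was the 1 feature that voom called. It stood at 1228 and 923 in WT on DMSO, 11465 and 10636 in WT on CHX, 4718 and 4210 in upf1 cells on DMSO, and 14081 and 12617 in upf1 cells on CHX. The groups were separate and each held at least 768 reads. The interaction was -1.79 ± 0.24 (limma adjusted p = 0.134, voom adjusted p = 0.0375). Of the frame's 137 codons, codon 67 is a stop. CCW22 is a close copy of the cell wall gene CCW12, and YDR133C overlaps it with almost the same values (-1.82 ± 0.30), so its reads are uncertain. The stretch around the stop, chrIV:721254-721310 on the minus strand of R64, has the stop codon in capitals.
CCW22: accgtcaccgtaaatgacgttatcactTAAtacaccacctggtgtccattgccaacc

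Of the other pseudogenes of the reference 9 could be tested, and 5 lay below 0 and 4 above, with a median of -0.06. AAD6, an aryl-alcohol dehydrogenase relic with 5 in-frame stops, stood at 3.36 and 1.00, 23.2 and 15.8, 29.5 and 17.7, and 57.0 and 41.1, an interaction of -1.38 ± 0.57 (adjusted p = 0.529). FLO8, whose frame carries a stop at codon 142 in the reference strain, lay at 0.25 ± 0.52 (adjusted p = 0.939).

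NBL1 (YHR199C-A, chromosome VIII), a subunit of the chromosomal passenger complex at centromeres, stood at 12.9 and 11.5 in WT on DMSO, 109 and 86.7 in WT on CHX, 173 and 125 in upf1 cells on DMSO, and 253 and 216 in upf1 cells on CHX. The level without UPF1 in DMSO exceeded that of WT with CHX in both libraries. Its interaction was -2.14 ± 0.35 (limma adjusted p = 0.143). NBL1 has an intron after the first 73 bases of its coding sequence. Read through unspliced, its frame meets a TAA stop at codon 43, where the spliced frame has 74 codons. The densities do not tell spliced from unspliced reads. The intron, chrVIII:498720-498786 on the minus strand of R64, is printed with its ends (GT, AG) and the branch point motif TACTAAC in capitals. The motif TACTAAC, searched on the gene's strand, is in 82.6% of the 281 introns of coding sequences in the reference.
NBL1 intron: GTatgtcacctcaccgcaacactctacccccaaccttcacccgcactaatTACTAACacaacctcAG
Introns as such went with little. Of 89 tested ribosomal protein genes with an intron the median interaction was -0.12, of 162 other genes with an intron -0.11, and of 5268 genes without one -0.004.

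EST3 (YIL009C-A, chromosome IX, 335666 to 336212), a telomerase subunit, needs a shift of the reading frame: without it translation ends at codon 94 of 182. It stood at 12.8 and 13.7 in WT on DMSO, 106 and 70.6 in WT on CHX, 111 and 70.6 in upf1 cells on DMSO, and 246 and 222 in upf1 cells on CHX. CHX and the missing UPF1 went with about the same level, and both together with a higher one. The interaction was -1.16 ± 0.42 (adjusted p = 0.467). The site, chrIX:335907-335963 on the minus strand of R64, shows the skipped base and the stop of the first frame in capitals.
EST3 frameshift site: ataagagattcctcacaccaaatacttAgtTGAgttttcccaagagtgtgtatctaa
The other named genes annotated with a skipped base were OAZ1, an antizyme that regulates polyamine synthesis, at -0.99 ± 0.67 and ABP140, an actin-binding methyltransferase, at -0.10 ± 0.58. OAZ1 had 1 read in WT DMSO and 12 in WT CHX, a ratio of 8.55 (95% counting interval 1.27 to 366).

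mRNAs listed as NMD-sensitive from general knowledge had mostly negative interactions. The list was chosen with earlier results of these data known. A higher level in upf1 DMSO enters the interaction with a minus sign, so the counts are a description. Of 25 members, all tested, 22 lay below 0, with a median of -0.48 against -0.01 for protein-coding genes. By limma 0 were called after adjustment. At an unadjusted p under 0.05, 6 (24.0%) had a smaller and 0 a larger response, beside 7.75% and 1.34% of all features and 3.53% and 1.54% of protein-coding genes. Without WT CHX replicate 1 the list median was -0.24 and without WT CHX replicate 2 it was -0.72, while relative to protein-coding genes it lay between -0.61 and -0.40 with each library left out in turn. With quantile normalization the median was -0.08 where that of protein-coding genes was 0.20. By added amount the order was the other way, since 21 of the 25 gained more scaled reads per kb on CHX in upf1 than in WT, as 78.9% of protein-coding genes did. COX19, a copper protein of the mitochondrial intermembrane space, stood at 59.8 and 56.0 in WT on DMSO, 321 and 446 in WT on CHX, 288 and 253 in upf1 cells on DMSO, and 616 and 668 in upf1 cells on CHX, with separate groups. Its interaction was -1.43 ± 0.30 (limma adjusted p = 0.222). MDJ2, a mitochondrial co-chaperone, had 1 read in WT DMSO and 23 in WT CHX, a ratio of 16.4 (95% counting interval 2.66 to 675), and its mean went from 34.03 to 80.6 in upf1. DAL7, a malate synthase induced by allantoin, had a mean of 3.85 with DMSO and 45.2 with CHX in WT, and of 52.5 and 153 in upf1, an interaction of -1.55 ± 0.58 (adjusted p = 0.491). RPL22B, a ribosomal protein gene whose own product binds its intron, stood at 54.9 and 83.5, 707 and 505, 341 and 237, and 1328 and 1382, with an interaction of -0.86 ± 0.40 (adjusted p = 0.58). The members above 0 were SSY5, ALR1 and CTF13, at 0.07, 0.21 and 0.34.

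mRNAs with known upstream open reading frames did not lie mostly below 0. Of 20 tested, 8 lay below 0 and 12 above, with a median of 0.08, and 1 had a smaller response without adjustment. That one was CPA1, the small subunit of carbamoyl phosphate synthetase, whose upstream frame codes for a peptide that stalls ribosomes. It stood at 49.9 and 49.8 in WT on DMSO, 147 and 156 in WT on CHX, 209 and 229 in upf1 cells on DMSO, and 391 and 423 in upf1 cells on CHX. The groups were separate, and upf1 in DMSO lay above WT with CHX. Its interaction was -0.68 ± 0.25 (adjusted p = 0.486). GCN4, the textbook case of reinitiation after upstream frames, lay at -0.38 ± 0.71, and YAP1 at 0.74 ± 0.41. CLN3, a G1 cyclin, kept nearly one level, 143 and 145, 153 and 143, 132 and 133, and 184 and 165, an interaction of 0.35 ± 0.25 (adjusted p = 0.717).

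NMD4 and EBS1, which act with Upf1, are themselves listed among NMD factors. NMD4 stood at 3.67 and 7.84, 26.6 and 25.9, 44.4 and 45.7, and 79.1 and 70.6, an interaction of -1.21 ± 0.43 (adjusted p = 0.459). EBS1 lay at -0.07 ± 0.57 and NMD2, the Upf2 protein, at 0.14 ± 0.58. UPF3 had at most 2 reads in a library and was below the filter. NAM7, the gene disrupted in upf1, lay at -0.75 ± 0.55 (adjusted p = 0.718) on what reads remained. HIS3 is carried by all groups as his3Δ1, a deletion within the gene. It stood at 37.8 and 37.6 in WT on DMSO, 249 and 183 in WT on CHX, 119 and 88.4 in upf1 cells on DMSO, and 270 and 311 in upf1 cells on CHX, an interaction of -0.96 ± 0.34 (adjusted p = 0.459).

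**Figure D4:**
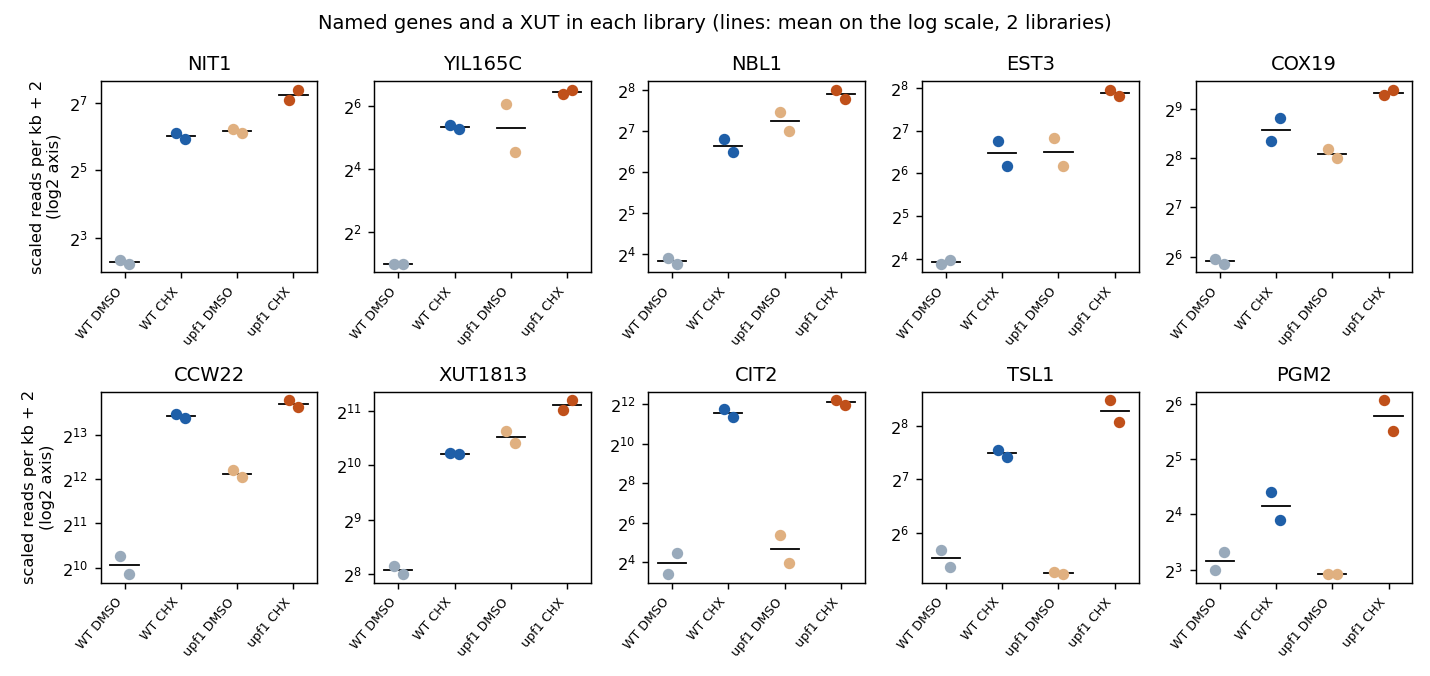
Level plus 2 scaled reads per kb (log2 axes, each panel with its own range) of 9 genes and XUT1813 in the 8 libraries, with the mean of each pair on the log scale as a black line. From NIT1 to XUT1813 both WT CHX and upf1 DMSO stand well above WT DMSO, while CIT2 and TSL1 stand high only in the CHX groups. PGM2 stands far from its other groups only in upf1 CHX.

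Short open reading frames of unknown product were also among the genes named by their p. YIR018C-A stood at 12.7 and 12.2, 249 and 194, 80.2 and 66.7, and 279 and 310, an interaction of -1.96 ± 0.31 (limma adjusted p = 0.143). YCR101C, YGL007C-A and YDR003W-A had 0 reads in WT DMSO and were at least 8.32-fold, 1.66-fold and 7.13-fold higher on CHX in WT. Their fitted interactions between -3.64 and -2.65 depend on the added 2 scaled reads per kb and bound nothing. R0010W, R0020C, R0030W and R0040C are open reading frames of the 2-micron plasmid, which the reference used here does not annotate. They were not named by p. R0010W and R0040C lay at -1.75 ± 0.33 and -1.90 ± 0.42, whereas R0020C and R0030W lay at -0.22 ± 0.39 and -0.26 ± 0.72. Their limma adjusted p lay between 0.21 and 0.961. The part of plasmid copy number was not tested. Among genes of nitrogen use, 3 of 16 (18.8%, beside 7.75% of all features and 3.53% of protein-coding genes) had a smaller response without adjustment and 0 a larger one. The list median was -0.42, and -0.25 without WT CHX replicate 1. Besides DAL7 these were DAL82, an activator of allantoin genes, at -1.27 ± 0.36 (adjusted p = 0.344), and DUR3, a urea transporter, at -0.85 ± 0.33.

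Positive interactions past p 0.05 without adjustment were fewer. PGM2, a phosphoglucomutase of glycogen and trehalose storage, had the smallest p. It stood at 5.94 and 7.93 in WT on DMSO, 19.2 and 12.9 in WT on CHX, 5.56 and 5.55 in upf1 cells on DMSO, and 64.9 and 43.4 in upf1 cells on CHX. Only upf1 CHX stood far from the others. Its interaction was 1.87 ± 0.45 (limma adjusted p = 0.271). TSL1, a regulatory subunit of trehalose synthase, stood at 49.2 and 39.5, 185 and 170, 36.7 and 35.6, and 354 and 269, an interaction of 1.06 ± 0.32 (adjusted p = 0.383). TPS2, which removes phosphate in the last step of that pathway, and XBP1, a stress-induced repressor, lay at 1.2 ± 0.45 and 1.13 ± 0.41. These are the 4 of 40 tested genes of the Msn2/4 stress response with a larger response at an unadjusted p under 0.05, or 10.0% against 1.34% of all features. None of the 40 had a smaller one by that measure, and 26 lay above 0, with a median of 0.26. With quantile normalization the median was 0.46, against 0.20 for protein-coding genes. Without upf1 DMSO replicate 2 it turned to -0.04, and without WT CHX replicate 2 it was 0.08, beside -0.16 and -0.19 for protein-coding genes. Relative to those genes it lay between 0.12 and 0.38 over the 8 libraries left out in turn.

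VMA21, an assembly factor of the vacuolar proton pump, stood at 40.4 and 51.9, 40.6 and 41.1, 52.3 and 32.0, and 114 and 94.6, so that only upf1 CHX was apart. Its interaction was 1.46 ± 0.40 (adjusted p = 0.344). MIA40, an import receptor of the mitochondrial intermembrane space, showed the same order with 18.6 and 22.4, 18.9 and 18.3, 15.5 and 14.9, and 33.8 and 35.4, an interaction of 1.22 ± 0.33 (adjusted p = 0.34). MRPL28, a mitochondrial ribosomal protein, lay at 1.34 ± 0.37 and PAL1, a factor of early endocytosis, at 1.05 ± 0.33. XRN1, the exonuclease after which XUTs are named, kept one level in 3 groups, at 33.7 and 33.2, 36.7 and 31.9, and 36.3 and 29.8, and stood at 57.6 and 58.9 in upf1 CHX. Its interaction was 0.76 ± 0.32 (adjusted p = 0.539). SKI3, a subunit of the cytoplasmic Ski complex, lay at 1.24 ± 0.49 (adjusted p = 0.517). These were the 2 of 35 genes of cytoplasmic mRNA decay with a larger response without adjustment (5.71%, beside 1.34% of all features and 1.54% of protein-coding genes), and the list median was 0.04. In the proteasome list, 23 of 33 lay above 0 with a median of 0.15, led by RPN5, a lid subunit, at 0.85 ± 0.36 (adjusted p = 0.539). The share below 0 was 30.3% in that list, beside 50.8% of protein-coding genes.

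Genes with strong responses to CHX had interactions on both sides of 0, several with wide errors. CIT2, the peroxisomal citrate synthase, stood at 8.43 and 20.4 in WT on DMSO, 3401 and 2557 in WT on CHX, 40.1 and 13.5 in upf1 cells on DMSO, and 4654 and 4028 in upf1 cells on CHX. The DMSO groups overlapped and the CHX groups did not. Its interaction was -0.19 ± 0.71 (adjusted p = 0.971). NRG1, a glucose repressor, lay at 0.21 ± 0.32, SPO24 at -0.50 ± 0.28, ICY1 at -0.22 ± 0.38, ARO10, a decarboxylase of amino acid breakdown, at -0.07 ± 0.48 and TPO4, a polyamine exporter, at -0.01 ± 0.61. DPI8 lay at -0.35 ± 0.22 and ATG41 at 0.11 ± 0.35. MPC3 and COX26 lay at 0.94 ± 0.61 and 1.18 ± 0.80 from at most 5 reads in a DMSO group. For MPC3 the ratio on CHX was 21.4 (95% counting interval 3.56 to 873) in WT and 57.4 (9.92 to 2301.5) in upf1, and for COX26 it was 10.7 (3.43 to 53.8) in WT. PAU5 has near-identical relatives, so its reads are uncertain. With no read in WT DMSO it was at least 6.89-fold higher on CHX in WT, with a ratio of 12.95 (95% counting interval 4.14 to 65.3) in upf1. A lower bound beside a ratio does not order the responses of WT and upf1. The fitted interaction of PAU5, -1.06 ± 0.42 (limma adjusted p = 0.518), depends on the added 2 scaled reads per kb. It was the 1 smaller response of this list at an unadjusted p under 0.05 (9.09%, beside 7.75% of all features). Over these 11 genes, chosen for their response in WT, the median was -0.07. Genes whose level was lower with CHX also lay near 0: GND1 at 0.02 ± 0.23, SAM1 at -0.32 ± 0.20 and TDH2 at -0.23 ± 0.19.

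The remaining lists had 0 members called by limma and few without adjustment. Leaving out 1 library turned the sign of the median in 24 of 33 lists, and in 16 of 33 when read relative to protein-coding genes. Methionine and sulfur genes had a median of -0.32, with 18 of 24 below 0 and MET14, the kinase of sulfate activation, at -1.13 ± 0.40. Amino acid genes under Gcn4 had a median of -0.23, with 27 of 37 below 0 and LYS4 at -0.68 ± 0.31. All 11 histone genes lay below 0, between -0.57 and -0.06, with a median of -0.18 and 0 of them past p 0.05 without adjustment. Glycolysis and fermentation had 20 of 27 below 0, with a median of -0.24, CDC19 (pyruvate kinase) at -0.40 ± 0.20 and GLK1 (glucokinase) at 0.79 ± 0.35. Ribosomal protein genes had 102 of 137 below 0 with a median of -0.11, and RPL36B, with 1 such p, at -0.41 ± 0.16. Ribosome biogenesis stood at 0.05, with EMG1 at -0.93 ± 0.43 and NOP8, without a read in WT DMSO and at least 4.04-fold higher on CHX in WT, the 1 smaller response without adjustment. Pyrimidine genes under Ppr1 stood at -0.20, with URA10, an orotate phosphoribosyltransferase that has the same 555 reads as NUT1325, at -1.14 ± 0.40, and FUI1 at -0.47 ± 0.35. Intron-regulated mRNAs stood at -0.20 with HNT1 at -0.46 ± 0.21, and telomerase and telomere genes at -0.15 with STN1 at -0.74 ± 0.46.

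Other lists with medians above 0 included the nuclear exosome and early termination (0.20, and -0.07 without WT CHX replicate 2, with RRP45 at 1.05 ± 0.49 and AIR1 at 0.79 ± 0.42), G1/S genes (0.17, with CLB3 at 1.00 ± 0.57) and MATa and haploid genes (0.16, with FUS1 at 0.75 ± 0.41). Chaperones stood at 0.10, with FES1 at 1.43 ± 0.64 and HSP82 at 0.98 ± 0.44. The nuclear respiratory chain stood at 0.09, with COX12 at 1.54 ± 0.71 and ATP4 at 0.58 ± 0.29, and the phosphate regulon at 0.07, with PHO81 at 0.95 ± 0.38 and PHM8 at 1.29 ± 0.57. G2/M genes (0.02), drug resistance genes (-0.03), ergosterol genes (-0.10), the iron regulon (-0.10), copper genes (-0.12) and 5 mitochondrially encoded genes (-0.14) lay close to the protein-coding median. Of these, PHO81 had p under 0.05 without adjustment. The signal recognition particle and splicing RNAs gave -0.08 over 10 members, with LSR1, the U2 RNA, at -0.30 ± 0.16 and snR6, the U6 RNA, at 0.22 ± 0.28.

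**Figure D5:**
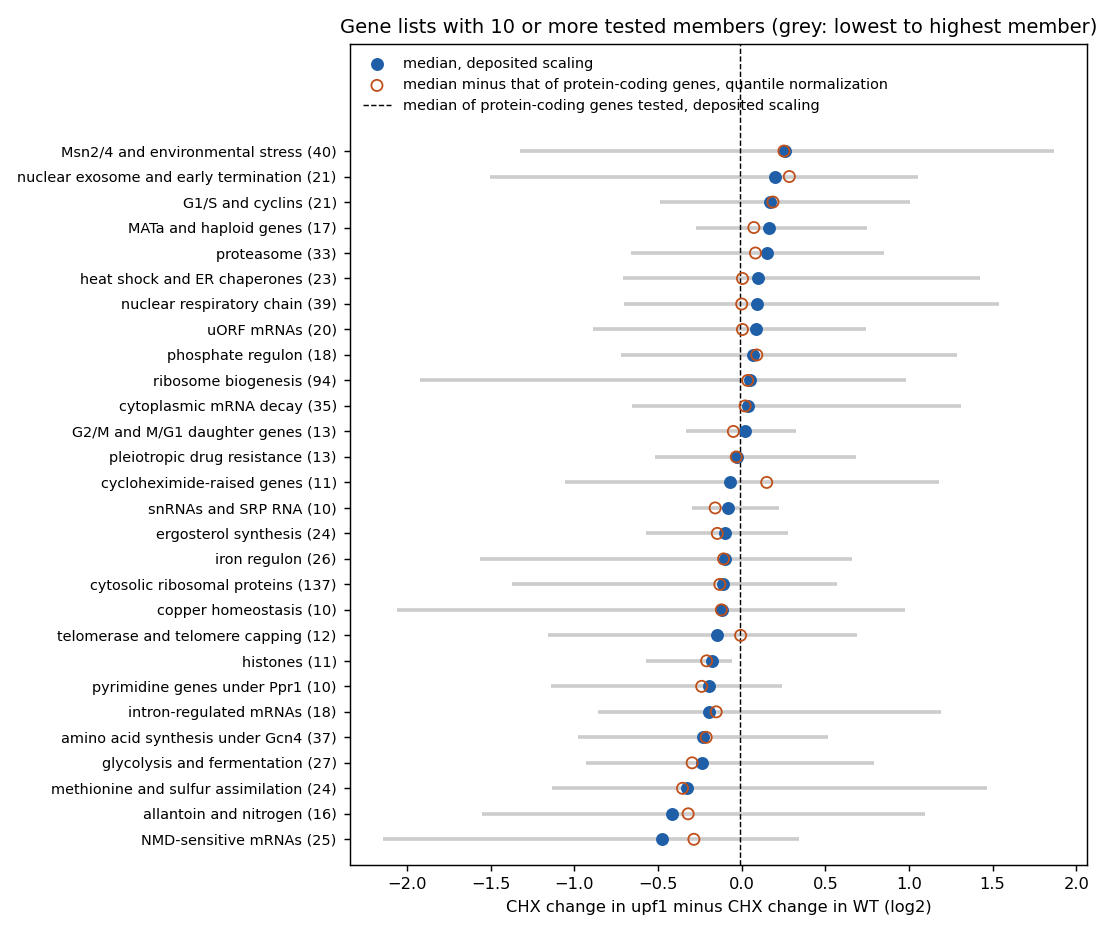
Median interaction (log2, horizontal axis) of each gene list with at least 10 tested members, with the number tested in brackets and the range of members as grey lines. Open circles give the median under quantile normalization relative to protein-coding genes, and NMD-sensitive mRNAs (-0.48) and the Msn2/4 stress genes (0.26) stand at the ends on the deposited scaling.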

How the data were processed

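Terminator-digested RNA of 8 yeast samples was sequenced, 2 biological replicates a group per the labels. The authors deposited normalized densities (signal) per feature, and their factors and feature lengths are not given in the sources used here. Per the submitters' processing notes, which give no role or order, the tools were DESeq2, featureCounts 2.0.0, HISAT2 2.2.0 and Trim Galore, with genome R64. Reads and lengths were recovered from the steps of the densities for 100.0% of features above 0 (tolerance 0.001 reads), whereas with 3% jitter 0 of 200 features gave a length. The smallest fitting length was taken, so features of few reads can come out at a whole fraction of their reads: 34 of 5942 annotated features, with 0.0183% of the reads, fell under 0.6 of their annotated span. The recovered totals were 1310994 to 5689067 reads a library.

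Densities times 1000 (scaled reads per kb) plus 2 were put on the log2 scale, for features with a mean of at least 2 and without rRNA. The interaction was tested with limma 3.58.1 (R 4.3.3, variance trend, 4 residual and 3.6 prior degrees of freedom), in both directions, and p-values were adjusted by Benjamini-Hochberg across the 10392 features tested with a threshold of 0.05. The fit was tested on simulated data. Class sums were compared by an exact permutation of genotype labels (36 arrangements, Python 3.11.15). Members and the 33 gene lists were chosen with earlier results of these data known. Named were up to 6 protein-coding genes a direction by p with a mean of at least 20, up to 3 of each non-coding class with a mean of at least 10, all NMD factors and genes chosen for their CHX response, up to 8 NMD-sensitive and upstream-frame mRNAs, and 2 of each other list. In-frame pairs, pseudogenes, introns and frameshift genes were added after values had been seen. Reads of any named gene with near-identical relatives are uncertain. Alternatives were other pseudocounts, filters and scalings, no variance trend, voom on the recovered reads, a replicate block and leaving out each library. Sequences are from the R64 reference. Catalogue coordinates of XUTs, SUTs, CUTs and NUTs were not used here.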

Additional observations from a re-analysis of the deposited data

How the results depend on the processing

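No feature was called with the settings of the report, and the count of calls depended on settings. Smaller and larger calls numbered 11 and 2 with 0.5 added, 8 and 1 with the protein-coding median scaling, 2 and 2 without the variance trend and 1 and 0 by voom, and smaller calls 0 to 1 with a library left out (IRC13 without WT DMSO replicate 1, tG(CCC)O without upf1 CHX replicate 2). With the replicate block 0 were called. The replicate 1 minus replicate 2 differences of any 2 groups correlated across features between -0.04 and 0.12. These values cannot decide whether the numbers pair the samples, and the labels do not say. The cause of these changes was not tested.

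With the protein-coding median scaling the additive interactions (1000 scaled reads) were -9.77 for XUTs, -5.75 for SUTs, -1.24 for CUTs, 88.6 for NUTs, 262.5 for protein-coding genes, 0.21 for tRNAs, 184 for snoRNAs and 74.6 for snRNAs. In place of the log2 interaction of the sum, the median over members was -0.57 for XUTs, -0.61 for SUTs, -0.42 for NUTs, -0.35 for tRNAs and -0.084 for snRNAs. Without the 5 largest features, an alternative chosen after seeing the data, it was -0.65 for CUTs, -0.083 for NUTs and -0.062 for snoRNAs, and the additive value was -0.32 for tRNAs. Leaving out each library moved the log2 values between -1.33 and -1.01 for XUTs, -1.29 and -0.90 for SUTs, -0.60 and -0.32 for CUTs, -0.067 and -0.010 for NUTs, -0.22 and 0.044 for protein-coding genes, -0.37 and -0.0096 for tRNAs, and -0.053 and 0.090 for snoRNAs. The additive values ran between -2.25 and -1.14 for CUTs, -8.34 and -1.27 for NUTs, and -7.21 and 16.7 for snoRNAs. Low reads in WT DMSO limit the folds of single non-coding transcripts.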
